A study of Arabidopsis thaliana with 6 samples.

Results

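TAS2 (AT2G39681) is a non-coding RNA gene of Arabidopsis thaliana and 1 of the 10 loci for which coverage was deposited. It was chosen by name, and every position of the deposited range was used, chromosome 2 from 16539383 to 16540416, which is 1034 nt. The annotation gives it as a single exon on the minus strand. RNA was immunoprecipitated with tagged DCL4, extracted and sequenced as single-end reads of 50 nt. The tagged lines were pDCL4-DCL4-6:FHA and pDCL4-DCL4-8:FHA, missense forms of DCL4 fused to a tag and driven by the DCL4 promoter in plants homozygous for dcl4-2. The control was untagged Col-0 (WT), which therefore differed from the tagged lines both in the tag and in its form of DCL4. All plants were of the Columbia ecotype, and each of the 3 lines was sampled in flowers and in seedlings, 1 library per group, 6 libraries in all. The sources used here do not give how many plants or independent transformants stand behind a library.

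TAS2 is the precursor of trans-acting small interfering RNAs. Its transcript is cleaved under the guidance of miR173, the fragment 3′ of the cut is copied into double-stranded RNA by RDR6 with SGS3, and DCL4 dices that double strand from the cut end into phased small RNAs. TAS1a, TAS1b and TAS1c are cut by the same miRNA. Small RNAs of TAS2 and TAS1 are known to silence mRNAs of pentatricopeptide repeat proteins, which act in RNA metabolism of organelles. The 21 nt steps counted from the cut are called registers here, and distance 1 is the first base 3′ of the cut, at position 16540000, opposite base 10 of miR173.

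The miRNA and its site are shown because every distance is counted from them. In miR173 (RefSeq TAIR10.1, chr3:8236161-8236182, plus strand) the capitals mark the seed, bases 2 to 8. In the sites, on the minus strand, the capitals mark bases that form Watson-Crick pairs with the miRNA, and pairs of G with U were not counted.
miR173: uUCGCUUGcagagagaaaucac
TAS2 site, chr2:16539991-16540012: GTGATTTtTCTCTcCAAGCGAA
TAS1a site, chr2:11722081-11722102: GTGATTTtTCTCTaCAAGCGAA
TAS1b site, chr1:18549660-18549681: GTGATTTtTCTCaaCAAGCGAA
TAS1c site, chr2:16537890-16537911: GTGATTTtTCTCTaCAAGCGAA
At TAS2, 20 of 22 bases paired in this way, and the next best place in the locus paired 13. The cut left 416 nt on the 5′ side and 618 nt on the 3′ side, which holds 29 whole registers. All 985 stretches of 50 nt in TAS2 occurred once in the genome, and the longest stretch shared with a TAS1 gene was 15 nt.

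The sequences of the main peak, the second peak and register 13 follow, also from RefSeq TAIR10.1 on the minus strand. Coverage was highest in the main peak and low in register 13. In the main peak the capitals mark distance 92 to 141, the 50 nt with the most coverage in each of the 4 tagged libraries.
main peak, distance 85 to 147, chr2:16539854-16539916: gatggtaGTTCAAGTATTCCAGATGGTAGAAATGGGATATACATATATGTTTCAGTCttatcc
second peak, distance 169 to 231, chr2:16539770-16539832: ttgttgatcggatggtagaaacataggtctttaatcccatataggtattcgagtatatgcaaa
register 13, distance 253 to 273, chr2:16539728-16539748: atctttgttttagtaaacata
The 8 letters GATGGTAG occurred 3 times on the sense strand 3′ of the cut and 0 times on the antisense strand. The copies began at distances 85, 106 and 179, so that one opens register 5, one opens register 6 and one lies in the second peak. No other run of 8 letters had as many copies there. Of 192378 windows of 618 nt that tile the 5 chromosomes, 1.36% held the letters on either strand and 5 held at least 3 copies on 1 strand. The letters were picked for their copies in TAS2, so these shares describe the genome and test nothing, and no overlap with another motif was looked at.

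Library totals, read from the smallest step of the deposited values, ran from 1961876 reads in WT seedlings to 21771069 reads in DCL4-8:FHA seedlings, an 11.1-fold range. In WT seedlings 1 read is therefore worth 0.510 RPM at a position. Each group is 1 library, so no test between groups was run. A fit of line plus tissue would take the way the lines differ between tissues as its error, and was not run. Intervals below are exact at 95%. They reflect counting alone, and copies made by PCR cannot be told from separate molecules, as no molecular identifiers are known of.

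TAS2 was recovered at a high level with DCL4-8:FHA, at a level lower by a factor of 25.5 to 32.2 with DCL4-6:FHA, and from 3 reads in each WT library. Its mean coverage over the locus in flowers was 0.935 RPM with DCL4-6:FHA, from 305 reads, 30.1 RPM with DCL4-8:FHA, from 7009 reads, and 0.00915 RPM in WT. In seedlings it was 1.26 RPM with DCL4-6:FHA, from 464 reads, 32.1 RPM with DCL4-8:FHA, from 14472 reads, and 0.0739 RPM in WT. The order of the lines was the same in both tissues, and the counting intervals of the lines did not overlap. The excess of DCL4-8:FHA over DCL4-6:FHA was 32.2-fold in flowers, with an interval of 28.7 to 36.3. In seedlings it was 25.5-fold, with an interval of 23.2 to 28.0. The median of that ratio over the 9 loci with reads in both lines, TAS2 included, was 51.1 in flowers and 25.5 in seedlings. Relative to the median TAS2 stood at -0.67 on the log2 scale in flowers, and in seedlings it was itself the median locus. In each WT library the 3 reads set the precision. Against WT of the same tissue, the level with DCL4-6:FHA was 102 times as high in flowers (34.6 to 498) and 17.1 times as high in seedlings (5.80 to 83.0). Without the highest window of 50 nt these ratios were 318 and 9.98, and by the maximum over positions 47.6 and 32.1, all within those intervals. In WT flowers only part of a read was left outside that window, so the interval of the full count does not apply to 318. In bulk tissue, fewer cells that hold the RNA and less RNA per cell cannot be told apart, nor can recovery by the tagged protein and the amount of precursor in the plant.

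Among the 10 loci TAS2 had the highest mean coverage with DCL4-8:FHA in both tissues. With DCL4-6:FHA it stood in place 3 in flowers, below the inverted repeat IR2039 at 1.14 RPM, and in place 2 in seedlings, below the miRNA precursor miR822 at 4.58 RPM. By the maximum over positions TAS3a was higher than TAS2 in DCL4-8:FHA flowers, at 344 against 295 RPM, and in DCL4-6:FHA flowers TAS2, at 8.995 RPM, was above IR2039, at 8.68 RPM. Of the summed level of the 4 miR173 loci, TAS2 held 70.7% in flowers and 73.3% in seedlings with DCL4-6:FHA. With DCL4-8:FHA it held 39.7% and 47.5%. The level is a mean over the whole deposited range of each gene, its uncovered part included. By reads the TAS2 share was 72.8% and 75.2% with DCL4-6:FHA and 42.0% and 49.9% with DCL4-8:FHA. The loci whose level over the 4 tagged libraries was most like that of TAS2 were TAS1c, TAS1a and TAS3a, TAS3a being a precursor cut under miR390. Their root mean square differences from TAS2 in centred log2 level were 0.99, 1.05 and 1.09, among 6 loci with at least 20 reads in every tagged library. TAS1b, with 19 reads in DCL4-6:FHA seedlings, missed that minimum, and with a minimum of 10 reads it was the nearest, at 0.92.

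The tissues differed less than the lines did. With DCL4-6:FHA, coverage in flowers was 0.742 times that in seedlings (0.639 to 0.857). With DCL4-8:FHA it was 0.937 times that in seedlings (0.910 to 0.964). Both intervals lie below 1. Both ratios rest on the highest stretch. Without the highest window of 50 nt the ratio was 0.987 with DCL4-6:FHA and 1.09 with DCL4-8:FHA, each outside its interval.

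Coverage lay 3′ of the miR173 cut and fell into a main peak, a second peak and, with DCL4-8:FHA, a long low tail. The share of coverage 3′ of the cut was 100% in both DCL4-6:FHA libraries, with lower bounds of 98.8% in flowers and 99.2% in seedlings. With DCL4-8:FHA it was 99.9997% in flowers and 99.9993% in seedlings, and the only covered base on the 5′ side was the one beside the cut. Across the 3 TAS1 loci in the same libraries the share ran from 99.77% to 100%. The 416 nt on the 5′ side thus held almost no coverage in any tagged library.

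**Figure D1:**
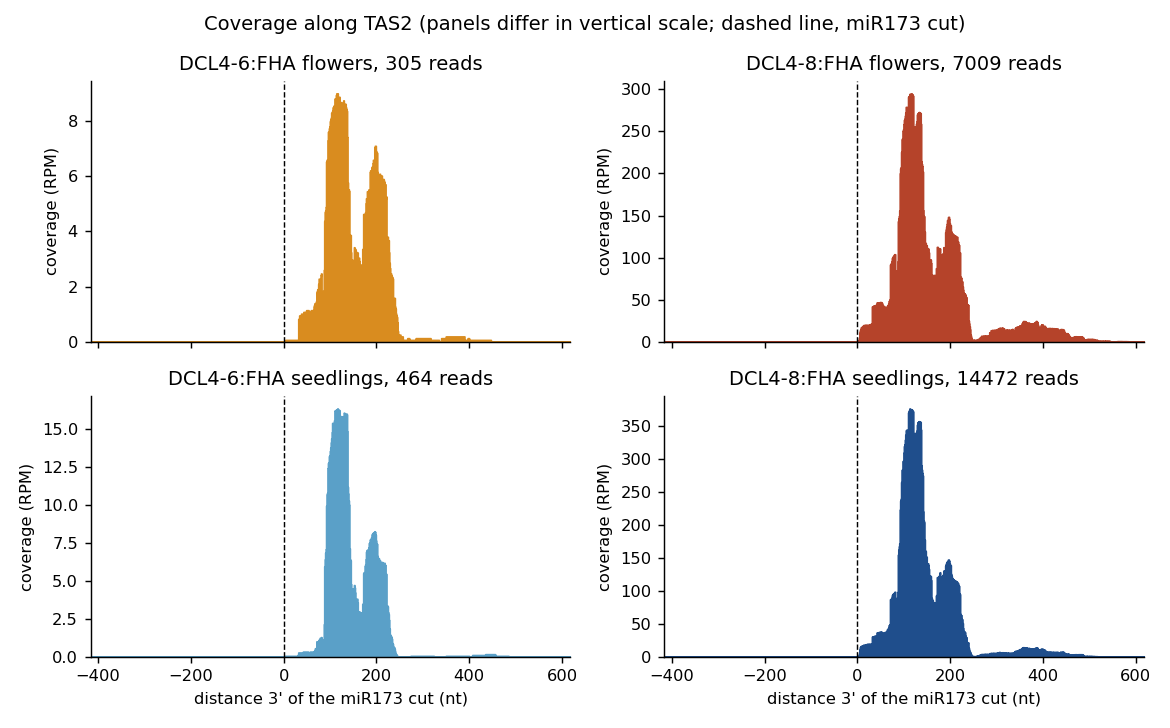
Coverage in RPM (vertical axis, scale differs by panel) against distance in nt 3′ of the miR173 cut (dashed line), 1 tagged library per panel. Each profile has its maximum at distance 113 to 116, at 8.995, 295, 16.4 and 377 RPM for DCL4-6:FHA flowers, DCL4-8:FHA flowers, DCL4-6:FHA seedlings and DCL4-8:FHA seedlings.

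With DCL4-8:FHA the near edge of the coverage stood a few bases inside the cut. In flowers the depth was 1 read at distance -1, 3 reads at distance 1, 20 at distance 3, 119 at distance 5 and 189 at distance 8. In seedlings it was 5, 10, 37, 232 and 353 reads at the same places. The largest gain from one base to the next within 15 nt of the cut was at distance 5 in both tissues, 71 and 130 reads. Between distance 2, at 5 and 13 reads, and distance 8 the depth grew by 184 and 340 reads. That gain was 82.5% of the depth at distance 15 in flowers and 85.6% in seedlings. With DCL4-6:FHA this edge was 1 read in each tissue, beginning at distance 4 in flowers and at distance 3 in seedlings. If the files count positions from 0, each of these distances is 1 nt smaller.

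The main peak was at the same place in both lines and both tissues. The maximum lay at distance 114 in DCL4-6:FHA flowers, 116 in DCL4-8:FHA flowers, 116 in DCL4-6:FHA seedlings and 113 in DCL4-8:FHA seedlings. The 50 nt in capitals above held 41.9%, 42.0%, 56.3% and 50.0% of the coverage in that order. Register 6 was the highest in all 4 libraries and register 7 was next. Mean coverage in register 6 was 8.71 RPM in DCL4-6:FHA flowers, 278 RPM in DCL4-8:FHA flowers, 16.0 RPM in DCL4-6:FHA seedlings and 357 RPM in DCL4-8:FHA seedlings. The register in place 3 was register 5 in 3 of the libraries and register 10, the crest of the second peak, in DCL4-6:FHA flowers.

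Between the peaks, register 8 was a shallow trough in both DCL4-6:FHA libraries and in both DCL4-8:FHA libraries. Its mean coverage was 3.004 and 3.59 RPM with DCL4-6:FHA in flowers and seedlings, and 93.0 and 112 RPM with DCL4-8:FHA. Coverage then rose to register 10, at 6.43 and 7.31 RPM with DCL4-6:FHA and 135 and 133 RPM with DCL4-8:FHA. Coverage was low again in register 13, which was a trough in both DCL4-8:FHA libraries. It had 0.0995 RPM in DCL4-6:FHA flowers, 4.33 RPM in DCL4-8:FHA flowers, 0 in DCL4-6:FHA seedlings and 2.57 RPM in DCL4-8:FHA seedlings. The DCL4-6:FHA flowers value is about 1 read, and registers 14 and 16 were lower there, at 0.0935 and 0.0603 RPM.

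**Figure D2:**
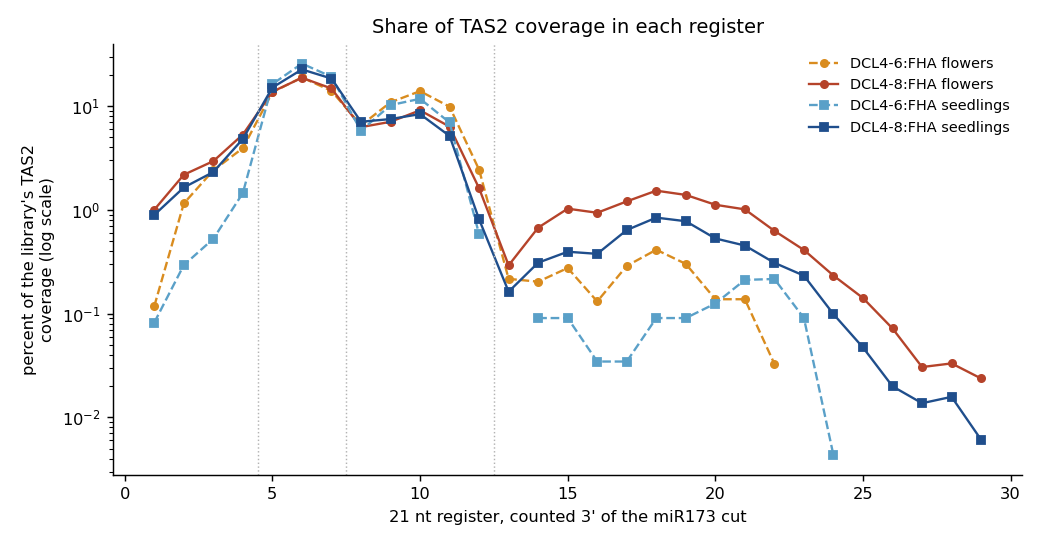
Percent of each library's TAS2 coverage (log scale) in each of 29 registers of 21 nt 3′ of the miR173 cut, with DCL4-8:FHA as solid and DCL4-6:FHA as broken lines. Dotted lines bound the 4 segments, registers with no coverage are not drawn, and register 6 is the highest in every library, from 18.8% to 25.7%.

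Base composition moved weakly with the depth. GC content was 34.9% in the main peak, 19.05% in register 13 and 29.9% over the registers as a whole. Across the 29 registers Pearson's r of GC content with log2 of depth plus 1 read was 0.29 to 0.38 in the 4 libraries, where neighbouring registers share reads. Its part in the profile was not tested.

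Traces of coverage reached farther with DCL4-8:FHA. The stretch of high coverage was longer with DCL4-8:FHA only in seedlings at the border of 10% of the maximum. Some coverage reached from distance 4 to 446 in DCL4-6:FHA flowers, from -1 to 617 in DCL4-8:FHA flowers, from 3 to 484 in DCL4-6:FHA seedlings and from -1 to 610 in DCL4-8:FHA seedlings. The ends of such a range move with depth, and the DCL4-6:FHA libraries had 305 and 464 reads. At 10% of the maximum the stretch ran from 34 to 243, 32 to 239, 87 to 228 and 49 to 231, in the same order, spans of 210, 208, 142 and 183 nt. In DCL4-8:FHA seedlings 172 of the 183 bases reached that border, and the other spans had no gap. At 50% of the maximum the span was longer with DCL4-6:FHA, at 133 against 108 nt in flowers and 106 against 53 nt in seedlings. All of these but the DCL4-8:FHA seedling span included a gap. The bases that reached this border numbered 103 against 57 in flowers, and 54 against 53 in seedlings, where the lines were thus nearly equal. The median base of coverage was at distance 138, 133, 131 and 129. The base with 95% of coverage on its near side was at 230 and 218 with DCL4-6:FHA in flowers and seedlings, and at 380 and 279 with DCL4-8:FHA.

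For comparison the 3′ side was divided into a proximal segment of registers 1 to 4, the main peak of registers 5 to 7, the second peak of registers 8 to 12 and a distal segment of registers 13 to 29. These bounds were drawn after the profile was seen. The distal segment held 2.14% of coverage in DCL4-6:FHA flowers (0.928 to 4.67, 7 reads), 10.8% in DCL4-8:FHA flowers (10.1 to 11.5, 755 reads), 1.08% in DCL4-6:FHA seedlings (0.351 to 2.50, 5 reads) and 5.23% in DCL4-8:FHA seedlings (4.87 to 5.61, 757 reads). Both DCL4-8:FHA shares lay above both DCL4-6:FHA shares, and the intervals did not overlap within a tissue. The proximal segment held 7.61% (4.84 to 11.1), 11.5% (10.7 to 12.2), 2.36% (1.19 to 4.202) and 9.68% (9.20 to 10.2) in that order. Here the lines were apart in seedlings, and in flowers their intervals overlapped.

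The excess of DCL4-8:FHA over DCL4-6:FHA was thus smallest at the peaks. In flowers it was 48.5-fold in the proximal segment (32.4 to 77.7), 32.7-fold in the main peak (27.7 to 39.1), 22.4-fold in the second peak (18.9 to 27.0) and 162-fold in the distal segment (73.1 to 378). In seedlings it was 105-fold (58.0 to 209), 23.4-fold (20.8 to 26.4), 20.9-fold (17.8 to 24.5) and 124-fold (52.8 to 382). In each tissue the distal interval lay above those of both peaks. Ratios by register could be given where both lines had at least 20 reads, which keeps the 7 registers of the peaks, 5 to 11, and none where DCL4-6:FHA was low. There the ratio ran from 20.7 in register 11 to 34.0 in register 7 in flowers, and from 18.1 in register 10 to 31.1 in register 8 in seedlings.

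**Figure D3:**
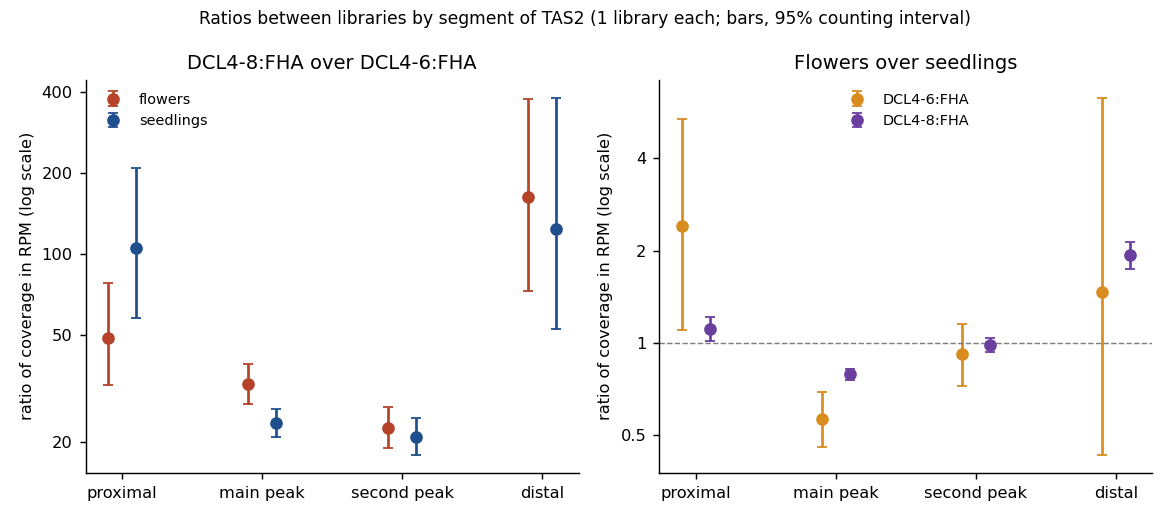
Ratio of coverage in RPM (log scale) in 4 segments of TAS2, DCL4-8:FHA over DCL4-6:FHA on the left and flowers over seedlings on the right, 1 library each, with exact 95% counting intervals as bars. On the left the distal ratios, 162 and 124, sit above the peak ratios, which run from 20.9 to 32.7, and on the right the main peak lies below the dashed line at 1 in both lines.

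The tissues also differed by segment. The proximal segment was 2.40-fold higher in flowers with DCL4-6:FHA (1.10 to 5.35), from 23 and 11 reads, and 1.11-fold higher with DCL4-8:FHA (1.02 to 1.21). With the bounds moved by 1 register the DCL4-6:FHA value was 3.02 and its interval, 0.918 to 13.3, included 1. With DCL4-8:FHA the distal segment was 1.93-fold higher in flowers than in seedlings (1.74 to 2.14), the main peak was at 0.790 of its seedling level (0.758 to 0.823), and the second peak at 0.985 (0.935 to 1.04). With DCL4-6:FHA the main peak was at 0.564 (0.457 to 0.691) and the second peak at 0.917 (0.721 to 1.16). The DCL4-6:FHA distal ratio, 1.47 (0.431 to 6.30), rests on 7 and 5 reads and leaves the direction undetermined at this depth. Of 23 registers with at least 20 reads in both DCL4-8:FHA libraries, 5 had an interval wholly below 1, registers 5 to 9, and 13 had one wholly above 1. Neighbouring registers share reads, so these counts are not of separate results. The lowest ratio was 0.751 in register 7 (0.699 to 0.808) and the highest 2.44 in register 15 (1.70 to 3.52). Over all 29 registers the profiles of the 6 pairs of tagged libraries had Pearson's r from 0.944 to 0.993, a description across registers that share reads.

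Coverage at TAS2 rose and fell in sharp steps, which place many of the reads. Recovering every read from the coverage failed in the tagged libraries, so reads were placed where a rise and a drop of the coverage stood 50 nt apart, and the smaller of the pair was counted. By this measure 69.3% to 83.8% of the reads were placed. A read end at distance 88, nearest the cut, held 8.52% of reads in DCL4-6:FHA flowers, 7.16% in DCL4-8:FHA flowers, 14.01% in DCL4-6:FHA seedlings and 8.13% in DCL4-8:FHA seedlings. An end at distance 92 held 8.20%, 7.11%, 10.99% and 7.68%, and an end at distance 172 held 6.56%, 4.18%, 7.76% and 4.06%. These 3 placements were among the 6 strongest in each of the 4 tagged libraries. The reads that end at 92 cover the 50 nt in capitals, and those that end at 172 run from 172 to 221, within the second peak.

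**Figure D4:**
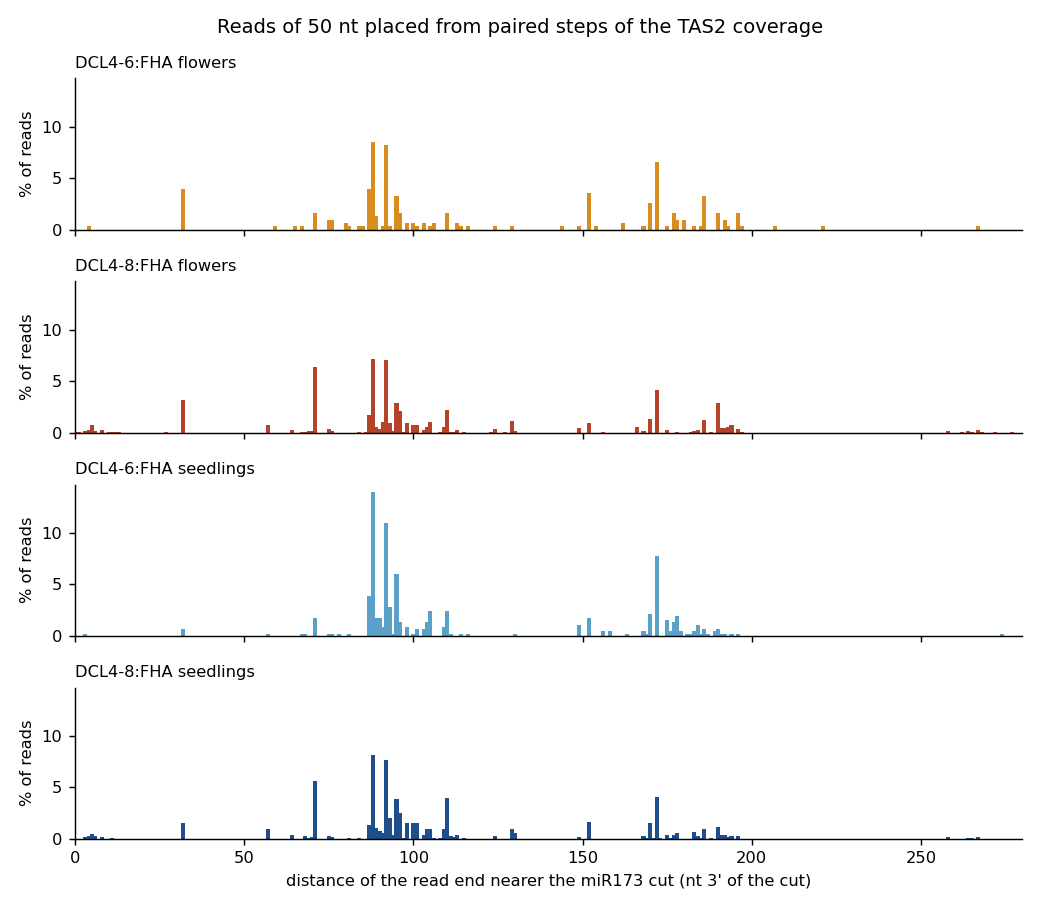
Percent of each library's TAS2 reads (vertical axis) by the distance, in nt 3′ of the miR173 cut, of the read end nearer the cut, 1 tagged library per panel. Ends at 88, 92 and 172 stand out in all 4 panels, and the end at 71 is taller with DCL4-8:FHA, at 6.43% and 5.58%, than with DCL4-6:FHA, at 1.64% and 1.72%.

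Some strong placements differed in share between the lines. The end at distance 71 held 1.64% of reads in DCL4-6:FHA flowers, 6.43% in DCL4-8:FHA flowers, 1.72% in DCL4-6:FHA seedlings and 5.58% in DCL4-8:FHA seedlings, from 5, 451, 8 and 807 reads. It was lower with DCL4-6:FHA in both tissues. The end at distance 87 went the other way, at 3.93% and 3.88% with DCL4-6:FHA in flowers and seedlings against 1.75% and 1.38% with DCL4-8:FHA, as did the end at 172. Ends at 71 and 92 stand 21 nt apart, 1 register, and ends at 88 and 172 stand 84 nt apart, 4 registers. The other pairs among these ends stand 4, 17, 80 and 101 nt apart, which are not whole registers. None of these 4 ends falls on a register that starts at the cut: counted in steps of 21 nt from distance 1, the ends at 71 and 92 lie 7 nt past a register start and those at 88 and 172 lie 3 nt past one. Ends that fall on a register start made up 1.29% to 5.01% of the placed reads, where an even spread over the 21 places would give 4.76%. The highest share, in DCL4-8:FHA flowers, was near that value. If the files count positions from 0, each distance is 1 nt smaller and other ends would fall on a register start. These counts describe the read end nearer the cut, and sense and antisense reads cannot be told apart. An antisense read starts at its far end, so its near end marks only where the read stopped. Whether the ends of the RNA itself lay in register was therefore not tested.

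TAS1a, TAS1b and TAS1c, the other loci cut under miR173, set the TAS2 profile in context. With DCL4-8:FHA, TAS1a was the most alike in coverage by register, with r = 0.852 in flowers and 0.903 in seedlings over 26 registers. TAS1c was the least alike, at 0.596 and 0.626 over 29 registers. With DCL4-6:FHA the order was not the same. In flowers r was 0.657 at TAS1a, 0.714 at TAS1b and 0.602 at TAS1c, and in seedlings 0.732, 0.571 and 0.596. The TAS1 loci had 19 to 85 reads in those libraries. With DCL4-8:FHA, TAS2 had less of its coverage next to the cut: registers 1 to 4 held 11.5% at TAS2 in DCL4-8:FHA flowers, against 16.2% at TAS1a (14.9 to 17.5), 21.1% at TAS1b (19.2 to 23.2) and 21.1% at TAS1c (19.9 to 22.3). In DCL4-8:FHA seedlings they held 9.68% at TAS2, against 16.8% at TAS1a, 22.7% at TAS1b and 29.2% at TAS1c. The TAS2 interval lay below those of the 3 TAS1 loci in both tissues. In DCL4-6:FHA flowers the order was not the same, with 7.61% at TAS2, 5.04% at TAS1a, 9.83% at TAS1b and 7.06% at TAS1c. The TAS1 loci had 30 to 53 reads there. In DCL4-6:FHA seedlings TAS2 was lowest, at 2.36%, against 8.27% at TAS1a, 16.1% at TAS1b and 17.2% at TAS1c. Those TAS1 values rest on 19 to 85 reads, and the TAS2 interval overlapped those of TAS1a and TAS1b. With DCL4-8:FHA TAS2 was also more concentrated, since its highest 50 nt held 42.0% in flowers, against 27.1% to 32.9% at the TAS1 loci, and 50.0% in seedlings, against 28.8% to 38.0%. In DCL4-6:FHA flowers it held 41.9% at TAS2 and 42.4% to 44.1% at the TAS1 loci, which had 30 to 53 reads. In DCL4-6:FHA seedlings it held 56.3% at TAS2 and 41.3% to 48.3% at the TAS1 loci, which had 19 to 85 reads.

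**Figure D5:**
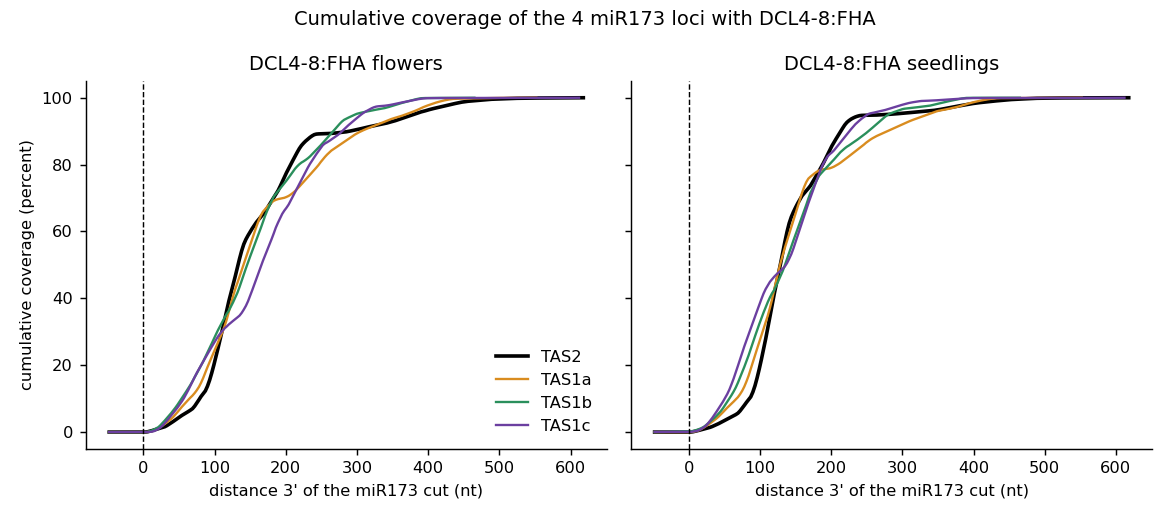
Cumulative percent of coverage against distance in nt 3′ of the miR173 cut (dashed line) at TAS2 and the 3 TAS1 loci with DCL4-8:FHA, flowers on the left and seedlings on the right. By the end of register 4 TAS2 lies below the TAS1 curves, at 11.5% and 9.68%, and it then gains 47.4% and 56.2% over the main peak, registers 5 to 7.

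Beyond register 12, the share with DCL4-8:FHA was higher in flowers than in seedlings at TAS2 and at each TAS1 locus. It was 10.8% against 5.23% at TAS2, 18.5% against 12.99% at TAS1a, 13.5% against 10.1% at TAS1b and 14.2% against 4.88% at TAS1c. The intervals of the 2 tissues did not overlap at TAS2, TAS1a and TAS1c, and they overlapped at TAS1b. The libraries are the same at all 4 loci, so these are not separate repeats of the tissue difference.

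The 6 reads of WT could be placed one by one. In flowers they ran from distance 71 to 120, from 95 to 144 and from 96 to 145, and the last 2 lie within the main peak. The same placements held 451, 201 and 151 reads in DCL4-8:FHA flowers. In seedlings they ran from 104 to 153, from 356 to 405 and from -192 to -143. The last is the only read of the series placed wholly on the 5′ side of the cut in TAS2, so that 2 of 3 WT seedling reads lay on the 3′ side. The placement from 104 to 153 held 131 reads in DCL4-8:FHA seedlings. The other 2 placements of WT seedlings held 0 reads in each tagged library. At 3 reads a library the WT profile cannot be compared with the tagged ones.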

How the data were processed

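The authors deposited coverage, a signal per position scaled to library size (RPM), for 10 loci, with the 3 libraries of a tissue in each file. Per the submitters' processing notes the build was TAIR10 and the tools HISAT2 2.0.5 and bedtools 2.25.0, with no role given. The strand setting and the treatment of reads with several places are not given in the sources used here, so sense and antisense reads cannot be told apart. The seedling files are named for seeds, and the labels give seedlings.

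Every deposited value was a whole multiple of 1 step per library, within 1.08e-08 of a read. Those steps gave library totals, and coverage divided by 50 nt gave reads. Positions were read as counted from 1, since the arms of the inverted repeat IR71 mirrored each other better so (1996 pairs). The margin was small, with Pearson's r of 0.876 to 0.949 against 0.871 to 0.940 in the tagged libraries. Sequences and the annotation came from RefSeq TAIR10.1, where genes begin and end 1 base later than the file ranges. Counting from 0 would give that shift, so the start of the count is not settled. Ratios have exact conditional, shares exact Clopper-Pearson and levels exact Poisson intervals (Python 3.11.15, SciPy 1.17.1). On 200 simulated pairs of TAS2 libraries per setting, with a true ratio of 30, the ratio interval held the truth in 96.5% (flowers) and 96% (seedlings). Simulated read numbers were Poisson draws, as the interval assumes, so this checks the calculation and not PCR copies or spread between libraries. For shares and for ratios by register or segment, a read that crosses a boundary counts as a fraction. Reads are then rounded, and the interval is exact for the rounded number only.

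TAS2, the gene lists and the tests were chosen with earlier results of these data known. Named were the 3 loci nearest in level, the 3 highest registers per library, and the registers of highest and lowest ratio. The segment bounds, the paired steps and the 8 repeated letters were chosen after seeing the data. Alternatives were the maximum over positions, leaving out the highest window, scaling to the median locus, the 3′ side alone, counting from 0, the far edge of the site, other borders, a stricter read minimum, other read lengths and, added after seeing the data, a lower read minimum for the nearest loci.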

Additional observations from a re-analysis of the deposited data

How the results depend on the processing

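Values are log2 ratios except where a percent is given. Setting to 1 the median ratio of the loci with reads in both libraries, 9 between tagged libraries and 4 or 6 against WT, turned the direction of DCL4-8:FHA over DCL4-6:FHA in flowers, to -0.67, and of DCL4-6:FHA over WT in flowers, to -0.32. With the same setting DCL4-8:FHA over DCL4-6:FHA in seedlings was 0, DCL4-8:FHA over WT was 0.058 in flowers and 1.41 in seedlings, DCL4-6:FHA over WT in seedlings was 0.60, and flowers over seedlings was -0.72 with DCL4-6:FHA and -1.71 with DCL4-8:FHA. This setting measures TAS2 relative to the other loci. Without the highest 50 nt window, flowers over seedlings turned to 0.12 with DCL4-8:FHA and was -0.019 with DCL4-6:FHA, and DCL4-8:FHA over DCL4-6:FHA in seedlings was 4.87. With the maximum over positions that ratio was 4.53, and flowers over seedlings was -0.86 with DCL4-6:FHA and -0.35 with DCL4-8:FHA. With the far edge of the miR173 site as the boundary, the 3′ share was 99.7% with DCL4-8:FHA in both tissues. The ratio of DCL4-8:FHA over WT was 3292 in flowers, 10236 without the highest window and 1560 by the maximum, and in seedlings 435, 291 and 740, all within its counting interval. The 10236 rests on part of a WT read, so that interval does not apply to it. The cause of these moves was not tested. Positions 3′ of the cut alone and counting from 0 kept every ratio and share within its counting interval. They are among the 24 of 40 alternative values of the main ratios and shares that did so. Segment bounds moved by 1 register kept the direction of every segment ratio. No paired analysis was possible because the groups compared share 1 replicate number, fewer than the 2 that a replicate block needs, and a fit with tissue as a block was not run. The DCL4-6:FHA libraries, at 305 and 464 reads, limit the distal and proximal segments, and WT seedlings, the library with the lowest total, limits the WT ratios there.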
